A study of Mus musculus with 12 samples.

Results

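Heat shock and chaperone genes were followed in glial cells of the mouse spinal cord. The 10 members, of 53465 genes counted, were listed by name: Hspa1a, Hspa1b, Hspa8, Hspa5, Hsp90aa1, Hsph1, Dnajb1, Hspb1, Hspd1 and Hspe1. They were chosen by the measured Hspa1a level, which was known to be low in the eGFP/tdTomato fraction against the eGFP fraction when the list of its relatives was made, so that comparison is described for the members without a test. Hspa1a itself and its near-identical copy Hspa1b are given without a test in every comparison. All 10 members passed the filter on low counts, as did 29361 genes in all.

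The 12 libraries came from C57BL/6 mice at postnatal day 7 with the genotype Aldh1L1-GFP/Olig2-tdTomato. The GFP reporter is named for an astrocyte gene and the tdTomato reporter for a transcription factor gene of the oligodendrocyte lineage and ventral cord. Brachial and thoracic cord was dissociated with papain, and cells were sorted into fractions labelled eGFP/tdTomato, eGFP and tdTomato, with 4 biological replicates each. Replicates are numbered 1, 2, 3 and 5 in each fraction, and the 3 libraries of a number are called 1 set here. Every fraction went through the same dissociation and sort, and no unsorted tissue was among the samples. Gates of the sort and animals per library are not given in the sources used here.

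Heat shock proteins are chaperones that keep other proteins folded or return them to their folded state. In the cytosol, HSP70 proteins bind exposed hydrophobic stretches, J-domain proteins load them with clients, HSP110 proteins exchange their nucleotide, and HSP90 completes the folding of kinases and receptors. HSF1 drives the inducible genes through heat shock elements, which are arrays of the unit GAA and its complement TTC. Dissociating tissue with enzymes is known to induce heat shock and immediate early genes in brain cells.

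The eGFP/tdTomato libraries held 23915784 to 30299452 gene counts, the eGFP libraries 12564767 to 27898597 and the tdTomato libraries 25460920 to 36505583. Levels are CPM, which are gene counts brought to a common library size, with library sizes scaled by TMM factors. The library of eGFP replicate 1 stood apart, with 57.1% of its reads outside annotated genes against 21.2 to 42.5% in the others. The main counts that use it are also given without it. That share also differed between fractions, at 25.6 to 42.5% in eGFP/tdTomato, 29.1 to 39.0% in the other eGFP libraries and 21.2 to 31.5% in tdTomato. Summed levels of 12 astrocyte genes were 44260 to 51834 CPM in the eGFP/tdTomato fraction, 33268 to 48816 CPM in the eGFP fraction and 491 to 640 CPM in the tdTomato fraction. Summed levels of 12 oligodendrocyte lineage genes were 1943 to 4159 CPM, 478 to 1626 CPM and 105827 to 155445 CPM in the same fractions. No gene of either list was at 0 in all libraries of a fraction.

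The start regions of the members are shown first, because the inducible HSP70 pair differs in so few letters there. RefSeq windows on GRCm38.p6, which run from 250 bases before to 50 bases after a gene start, were found for 8 members, and for some members at more than 1 start. Hspa8 and Hsp90aa1 were not matched. For Hspa1a, Hspa1b and Hspb1 the 250 bases before the start are given, 5′ to 3′ on the gene's strand, with capitals on each heat shock element core of 2 units, GAANNTTC or TTCNNGAA. They lie at chr17:34972157-34972406 on the minus strand for Hspa1a, at chr17:34959239-34959488 on the minus strand for Hspa1b and at chr5:135887669-135887918 on the plus strand for Hspb1.
Hspa1a: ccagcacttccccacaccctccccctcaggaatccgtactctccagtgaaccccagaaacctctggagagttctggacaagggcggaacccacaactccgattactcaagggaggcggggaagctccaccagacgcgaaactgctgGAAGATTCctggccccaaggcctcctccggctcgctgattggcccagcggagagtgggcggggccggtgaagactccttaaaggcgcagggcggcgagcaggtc
Hspa1b: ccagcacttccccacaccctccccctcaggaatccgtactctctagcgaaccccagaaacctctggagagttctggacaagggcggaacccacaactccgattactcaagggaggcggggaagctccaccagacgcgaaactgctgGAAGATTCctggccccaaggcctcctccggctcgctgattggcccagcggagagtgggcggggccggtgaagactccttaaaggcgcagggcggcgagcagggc
Hspb1: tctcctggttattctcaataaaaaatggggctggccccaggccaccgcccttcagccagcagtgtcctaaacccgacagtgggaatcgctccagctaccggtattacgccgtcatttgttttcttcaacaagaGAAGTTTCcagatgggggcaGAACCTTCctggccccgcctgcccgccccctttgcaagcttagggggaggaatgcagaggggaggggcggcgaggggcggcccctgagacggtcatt

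The Hspa1a and Hspa1b windows were identical at 296 of 300 bases (98.7%). Counted from 1 at the 5′ end of the window, with the Hspa1a base first, they differed by C44T, T47C, T249G and C276T. None of these fell in the single core that both carry at bases 147 to 154. The Hspb1 window held 2 cores, at bases 134 to 141 and 154 to 161. The 8 members had 11 windows, and 6 members held a 2-unit core on either strand in a window. Of 27025 mouse genes with windows of this length 17.0% did, and of their 32851 windows 15.1%. Arrays of 3 units in turn, which contain 2-unit cores, were found in windows of Hspd1, Hspe1 and Hsph1 and in 0.603% of all windows (0.662% of genes). The TATA box letters TATAAA were in windows of 0 members and in 13.6% of all windows (15.7% of genes).

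Short stretches show the arrays of the mitochondrial pair and of the endoplasmic reticulum chaperone gene. Hspd1 and Hspe1 are transcribed away from each other from starts that overlap, and the same array stands in windows of both. A stretch of 30 bases around it is given on the Hspe1 strand (plus) at chr1:55088053-55088082, with capitals on the run of alternating units. For Hspa5, 30 bases at chr2:34772020-34772049 on the plus strand are given with capitals on the ER stress element, which is CCAAT and CCACG with 9 bases between them.
Hspe1: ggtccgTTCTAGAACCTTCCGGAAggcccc
Hspa5: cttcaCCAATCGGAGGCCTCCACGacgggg
The ER stress element was found in the window of Hspa5 alone among the members and in 0.119% of all windows (0.137% of genes). These matches describe letters in the windows and were not tested for binding.

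**Figure D1:**
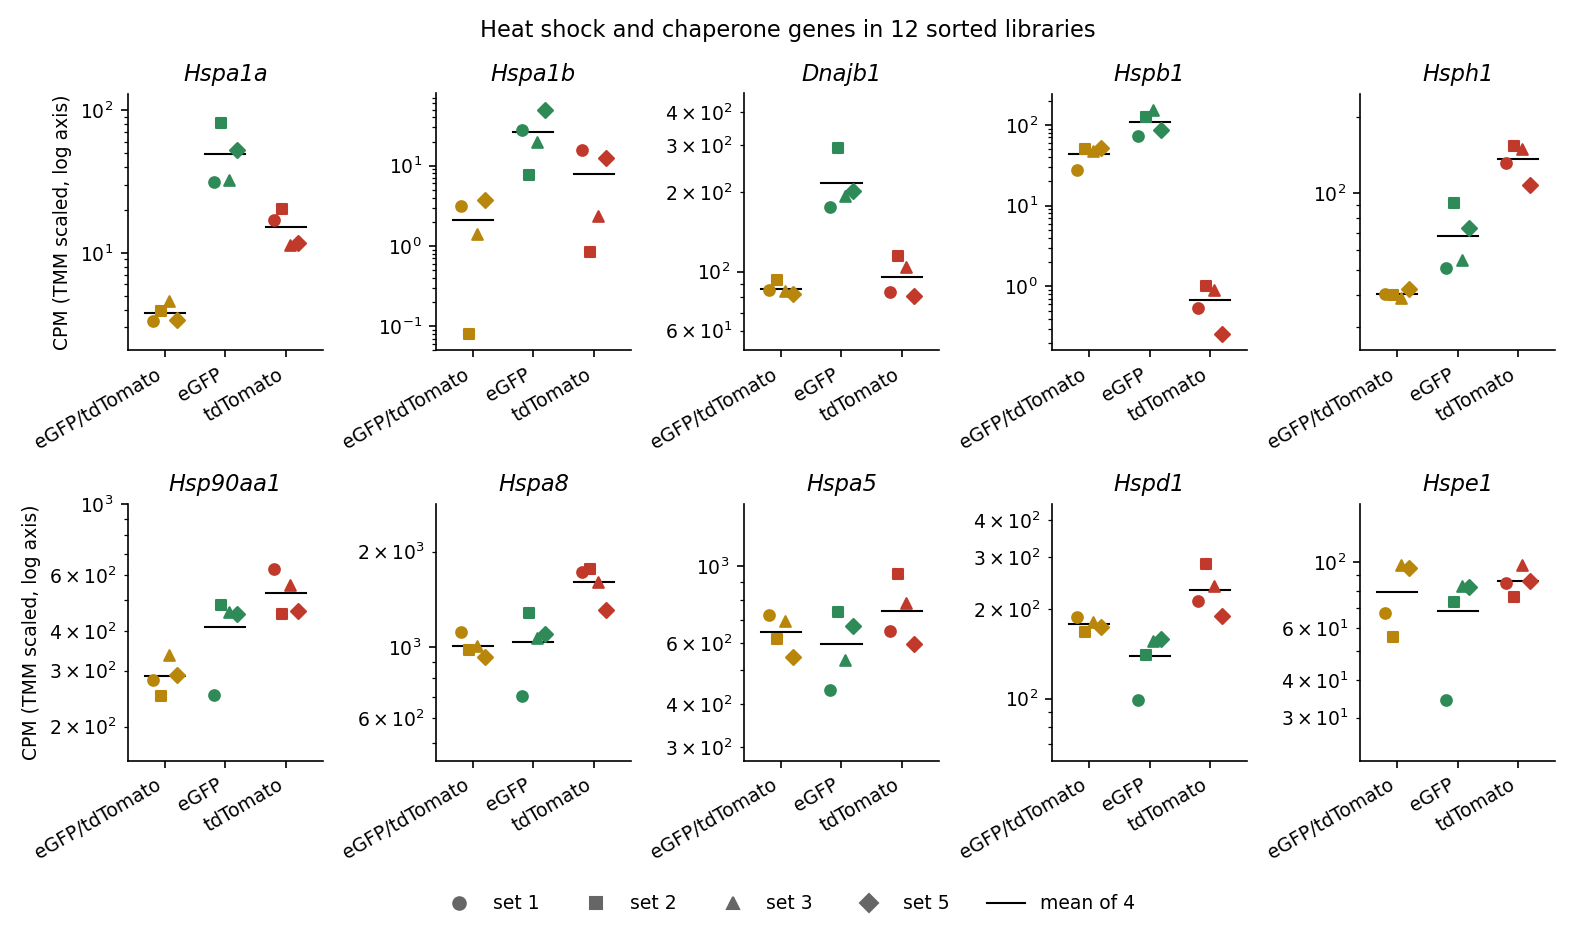
Level of each member in each library (CPM, TMM scaled, log axes that differ between panels), with the eGFP/tdTomato, eGFP and tdTomato fractions from left to right, a symbol for each set and a line at the mean of 4 libraries. Hspa1a lay between 3.31 and 4.59 CPM in the eGFP/tdTomato libraries, below all others, and Hspb1 lay at or below 1.02 CPM in the tdTomato libraries.

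Hspa1a and Hspa1b encode near-identical stress-inducible HSP70 proteins from neighbouring genes of 1 exon each. On GRCm38 they lie at chr17:34969190-34972156 and chr17:34956436-34959238, both on the minus strand. Hspa1a was at 3.31, 3.91, 4.59 and 3.37 CPM in eGFP/tdTomato replicates 1, 2, 3 and 5, at 31.4, 82.0, 32.3 and 52.6 CPM in the eGFP libraries in the same order, and at 17.0, 20.4, 11.3 and 11.7 CPM in the tdTomato libraries. The 3 fractions did not overlap. As a description, its mean was 13.1-fold lower in the eGFP/tdTomato fraction than in the eGFP fraction, 3.98-fold lower in the eGFP/tdTomato fraction than in the tdTomato fraction (log2 difference -1.99 ± 0.31, SE), and 3.28-fold higher in the eGFP fraction than in the tdTomato fraction. Without eGFP replicate 1, the log2 difference between the eGFP/tdTomato and eGFP fractions was -3.94, against -3.71 with it.

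Hspa1b had the same order of means but a much wider spread. It was at 3.14, 0.0797, 1.39 and 3.74 CPM in eGFP/tdTomato replicates 1, 2, 3 and 5, at 27.6, 7.71, 19.6 and 49.6 CPM in the eGFP libraries and at 15.7, 0.842, 2.34 and 12.5 CPM in the tdTomato libraries. Replicate 2 was the lowest of its fraction in all 3. In each set its level was lower in the eGFP/tdTomato library than in the tdTomato library. Across sets the libraries of these fractions overlapped. In the fit without sets the mean was 3.72-fold lower in the eGFP/tdTomato fraction than in the tdTomato fraction (log2 difference -1.90 ± 0.88, SE). This is given without a test, since the pair may share reads and Hspa1a chose the list. The difference from the eGFP fraction, where no libraries overlapped, was a 12.4-fold lower mean in the eGFP/tdTomato fraction and is given without a test.

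The division of counts between the pair followed the set more closely than the fraction. Hspa1b took 48.7%, 46.8% and 48.1% of the Hspa1a and Hspa1b counts in the eGFP/tdTomato, eGFP and tdTomato libraries of set 1, and 52.6%, 48.5% and 51.6% in those of set 5. In set 2 it took 2.0%, 8.59% and 3.96% in the same fractions, with Wilson 95% intervals of 0.55 to 7.0%, 7.43 to 9.92% and 2.75 to 5.66% that cover counting error only. In set 3 it took 23.3%, 37.8% and 17.2%. Within a fraction the share ranged over 39.9 to 50.6 percentage points, and within a set over 1.9 to 20.6 points. The intervals of set 2 overlapped none of those of the other sets.

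The summed level of the pair followed the fraction in every set. It was 3.99 to 7.11 CPM in the eGFP/tdTomato libraries, 51.8 to 102 CPM in the eGFP libraries and 13.6 to 32.7 CPM in the tdTomato libraries. With the pair counted as 1 gene, the log2 difference between the eGFP/tdTomato and tdTomato fractions was -1.96 ± 0.29 (SE), given without a test since Hspa1a chose the list. Of the within-fraction variation of Hspa1b on the log2 scale, 91.1% lay between sets, against 44.6% for Hspa1a. The median of 12038 genes of at least 5 CPM was 49.2%, with a 10th to 90th percentile of 19.3 to 77.1%.

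**Figure D2:**
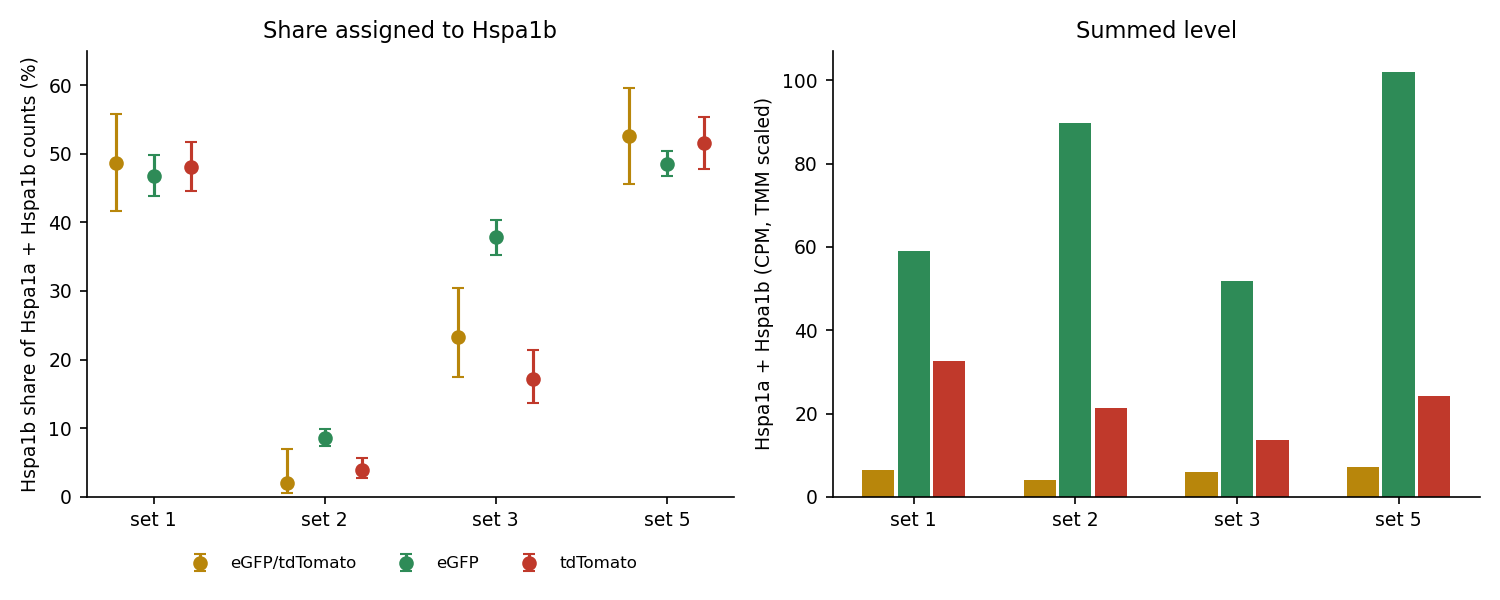
Left, share of Hspa1a and Hspa1b counts assigned to Hspa1b (%) in each library with Wilson 95% intervals, by set and fraction; right, summed CPM of the pair in the same libraries. The share lay at 2.0 to 8.59% in set 2 and 46.8 to 52.6% in sets 1 and 5, while in each set the eGFP bar is the highest and the eGFP/tdTomato bar the lowest.

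How reads of the pair were assigned limits these values. The exons of Hspa1a and Hspa1b share sequence: 58.8% of the 50-base windows and 47.1% of the 100-base windows of Hspa1a were also in Hspa1b, and none were in Hspa8 or Hspa5. Reads aligned at several places (10.1 to 15.2% of a library) stand outside the gene counts in the files, so reads from shared stretches may be missing from both genes. Libraries of a set were also alike in 4 Y-linked genes (Ddx3y, Eif2s3y, Kdm5d and Uty), at 28.5 to 94.5 CPM in set 3 and at most 0.223 CPM in the other sets. What the animals of a set share is not given in the sources used here, and its part in the Hspa1b share was not tested. Hspa1a also overlaps Gm20481 on the opposite strand over 564 exonic bases (19.0% of its own), and Gm20481 had 0 CPM.

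Dnajb1 and Hsph1 encode partners of HSP70. Dnajb1, an inducible J-domain protein gene, was at 82.4 to 93.3 CPM in the eGFP/tdTomato libraries, 175 to 294 CPM in the eGFP libraries and 80.8 to 115 CPM in the tdTomato libraries. The eGFP libraries stood clear of the others, and the eGFP/tdTomato and tdTomato libraries overlapped. Between the eGFP and tdTomato fractions Dnajb1 rose 2.25-fold (log2 1.17 ± 0.19, adjusted p = 0.000152). Between the eGFP/tdTomato and tdTomato fractions it was not called (adjusted p = 0.541, 95% interval of the ratio 0.698 to 1.16). Its mean was 2.5-fold lower in the eGFP/tdTomato fraction than in the eGFP fraction, as a description.

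Hsph1, the HSP110 nucleotide exchange factor gene, had another order. It was at 40.5, 40.0, 38.8 and 42.3 CPM in eGFP/tdTomato replicates 1, 2, 3 and 5, at 51.0, 91.7, 54.9 and 73.5 CPM in the eGFP libraries and at 132, 154, 149 and 108 CPM in the tdTomato libraries. No fraction overlapped another, with tdTomato the highest. Hsph1 fell by 1.75 ± 0.20 on the log2 scale in the eGFP/tdTomato fraction against tdTomato (3.36-fold, adjusted p = 4.95e-06) and by 1.00 ± 0.20 in the eGFP fraction against tdTomato (2.0-fold, adjusted p = 0.000807). The coefficient of variation of its 4 eGFP/tdTomato libraries was 3.54%.

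Hspb1, a small heat shock protein gene (HSP25 in mouse) at chr5:135887919-135889563, was at a low level in the tdTomato fraction. It was at 27.7 to 51.8 CPM in the eGFP/tdTomato libraries, at 72.8, 124, 153 and 86.2 CPM in eGFP replicates 1, 2, 3 and 5 and at 0.535, 1.02, 0.892 and 0.258 CPM in the tdTomato libraries in the same order. No fraction overlapped another. The tdTomato values rest on 7 to 34 counts a library. Against the tdTomato fraction, Hspb1 rose by 5.99 ± 0.40 on the log2 scale in the eGFP/tdTomato fraction (63.7-fold, adjusted p = 1.46e-08) and by 7.30 ± 0.42 in the eGFP fraction (157-fold, adjusted p = 3.13e-09). Its mean was 2.47-fold lower in the eGFP/tdTomato fraction than in the eGFP fraction, as a description.

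Hspa8 and Hsp90aa1 were among the most abundant members. Hspa8, the constitutive HSP70 gene, was at 1120, 980, 1006 and 931 CPM in eGFP/tdTomato replicates 1, 2, 3 and 5, at 704, 1285, 1073 and 1097 CPM in the eGFP libraries and at 1726, 1767, 1606 and 1311 CPM in the tdTomato libraries. The tdTomato libraries stood above all others. Hspa8 fell by 0.67 ± 0.19 on the log2 scale in the eGFP/tdTomato fraction (adjusted p = 0.0159) and by 0.62 ± 0.19 in the eGFP fraction (adjusted p = 0.0201), both against tdTomato.

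Both Hspa8 calls could be lost by leaving out a single library, though the differences kept their direction. With 1 library left out in turn, the log2 differences were -0.96 to -0.62 for eGFP/tdTomato and -0.87 to -0.58 for eGFP, both against tdTomato. Of 27 alternatives, 22 and 21 made the calls. The call between eGFP/tdTomato and tdTomato was lost without eGFP/tdTomato replicate 2 or 5 (adjusted p = 0.0533 and 0.0612) without tdTomato replicate 1 or 2 (0.0640 and 0.0579) and without set 2 (0.113). The call between eGFP and tdTomato was lost without tdTomato replicate 1, 2 or 3 (0.0692, 0.0648 and 0.0533), without set 1 or 2 (0.0908 and 0.0562) and with a covariate for the share of reads outside genes (0.111). Without eGFP replicate 1 the differences were -0.90 and -0.65, and both were called. Hspa8 hosts 3 snoRNA genes whose bases its annotated exons include.

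Hsp90aa1, the inducible cytosolic HSP90 gene, was at 250 to 336 CPM in the eGFP/tdTomato libraries, 251 to 484 CPM in the eGFP libraries and 452 to 628 CPM in the tdTomato libraries. It fell by 0.86 ± 0.21 on the log2 scale in the eGFP/tdTomato fraction against tdTomato (1.82-fold, adjusted p = 0.00545), with no overlap. The eGFP libraries overlapped both other fractions. Between eGFP and tdTomato the difference was not called (adjusted p = 0.199, 95% interval of the ratio 0.589 to 1.04), and 1 of 27 alternatives called it, upper-quartile factors (adjusted p = 0.0447). The lowest eGFP library was replicate 1 at 251 CPM; the other eGFP libraries lay at 452 to 484 CPM.

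Hspa5, which encodes the HSP70 of the endoplasmic reticulum (BiP), was at 545 to 721 CPM in the eGFP/tdTomato libraries, 438 to 740 CPM in the eGFP libraries and 594 to 949 CPM in the tdTomato libraries. All fractions overlapped. It was not called between eGFP/tdTomato and tdTomato (adjusted p = 0.443, 95% interval of the ratio 0.654 to 1.14) or between eGFP and tdTomato (adjusted p = 0.226, 0.606 to 1.06). None of the 27 alternatives called it in either comparison.

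Hspd1 and Hspe1 encode the mitochondrial HSP60 chaperonin and its HSP10 lid, and their annotated transcripts share 112 bases on opposite strands. Hspd1 was at 168 to 188 CPM in the eGFP/tdTomato libraries, 98.8 to 159 CPM in the eGFP libraries and 190 to 284 CPM in the tdTomato libraries. The fractions did not overlap, with eGFP the lowest and tdTomato the highest. In the eGFP fraction Hspd1 fell by 0.74 ± 0.18 on the log2 scale against tdTomato (adjusted p = 0.00496), a call lost without set 2 (0.0643). Between eGFP/tdTomato and tdTomato it was not called (adjusted p = 0.139), and 9 of 27 alternatives called it, with the lowest p (0.00493) without eGFP replicate 1. Hspe1 was at 55.9 to 97.9 CPM, 34.4 to 82.8 CPM and 76.0 to 97.5 CPM in the eGFP/tdTomato, eGFP and tdTomato libraries, which overlapped, and it was not called against tdTomato in either fraction (adjusted p = 0.714 and 0.301).

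**Figure D3:**
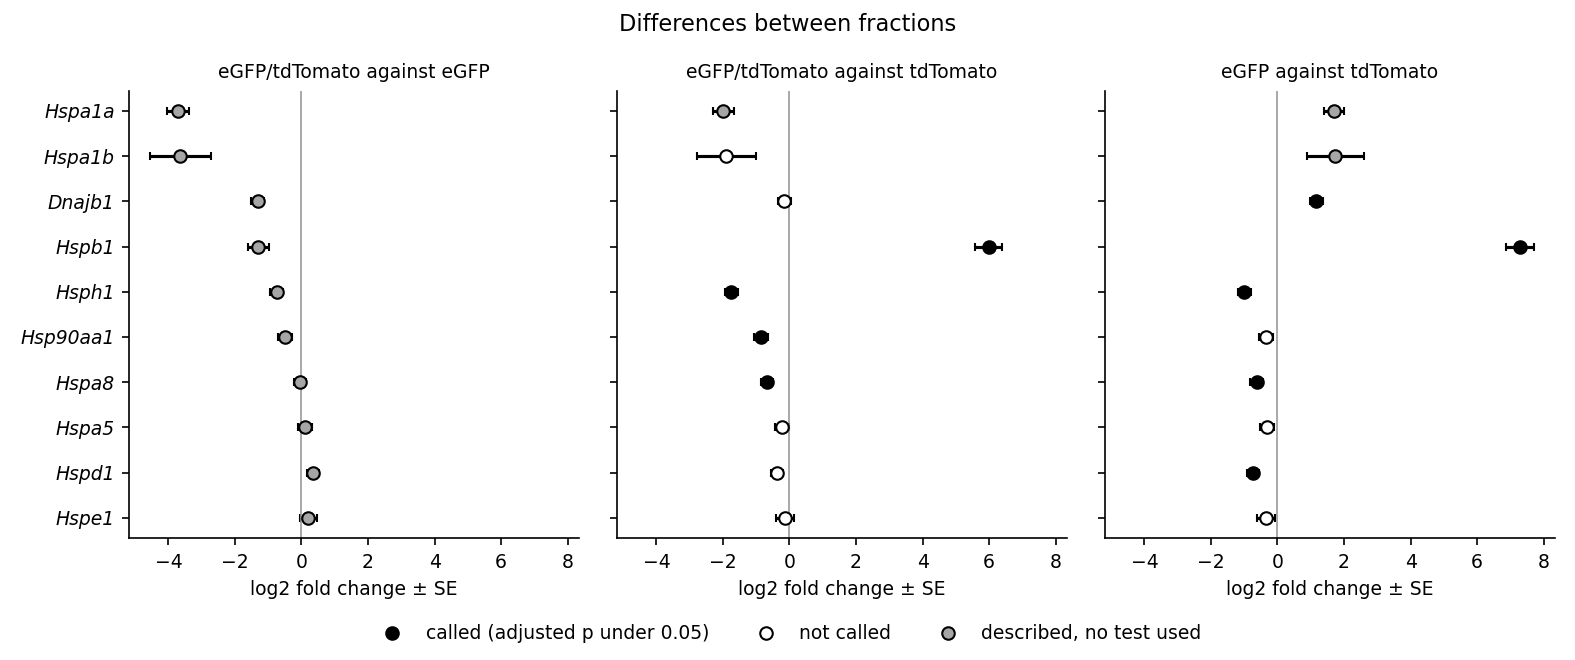
Log2 fold change of each member with its SE in the 3 comparisons (positive means higher in the fraction named first); black points were called at an adjusted p under 0.05, white points were not, and grey points, Hspa1a among them in all 3, are given without a test. The Hspa1b point between eGFP/tdTomato and tdTomato, drawn white, is likewise given without a test. Hspb1 lies at 5.99 and 7.30 against the tdTomato fraction, and Hspa1a at -3.71 between the eGFP/tdTomato and eGFP fractions.

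Hspa1a, whose eGFP/tdTomato values chose the list, and its near-identical copy Hspa1b are left out of the members called. Of the other 8, 4 were called between eGFP/tdTomato and tdTomato, 1 higher and 3 lower. Of all genes, 29.2% were called there, 16.8% higher and 12.4% lower. Between eGFP and tdTomato, 5 of 8 tested were called, 2 higher and 3 lower, where 35.2% of all genes were called, 20.4% higher and 14.9% lower. Among 14947 protein-coding genes with a mean of at least 1 CPM, to which the members belong, the shares were 45.9% and 53.7%, so the members' counts lay near the background. The median log2 difference was -0.52 and -0.33 over all 10 members, Hspa1a included, so nothing is read from it. That of all genes was 0.70 and 0.79, and that of those protein-coding genes 0.11 and 0.05. Between eGFP/tdTomato and eGFP, where 2.49% of all genes were called (0.814% higher and 1.67% lower) and 4.61% of those protein-coding genes, 7 of 10 members had a lower mean, 4 were at least 2-fold lower and 6 did not overlap, as a description. Of all genes tested, 7.98% were at least 2-fold lower there and 7.94% did not overlap, and of those protein-coding genes 6.22% and 12.5%. The members were chosen on this comparison, so nothing is read from these counts. Without eGFP replicate 1, the log2 differences there were -3.65 for Hspa1b, -1.52 for Hspb1, -1.48 for Dnajb1, -0.93 for Hsph1, -0.74 for Hsp90aa1 and 0.17 for Hspd1, and the small differences of Hspa5 (0.11) and Hspe1 (0.21) became -0.07 and -0.06. The same 5 members were called between eGFP and tdTomato without that library. The eGFP comparisons share the eGFP libraries, and the tdTomato comparisons share the tdTomato libraries.

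Other values differed between the same fractions. Summed microglia and macrophage markers (14 genes) were 41.8 to 51.1 CPM in the eGFP/tdTomato fraction, 114 to 1185 CPM in the eGFP fraction and 27.5 to 53.1 CPM in the tdTomato fraction. Mural and fibroblast markers (10 genes) were 370 to 584, 797 to 2102 and 54.1 to 90.1 CPM, and ependymal markers (10 genes) 17.0 to 27.2, 241 to 503 and 2.45 to 8.38 CPM in the same fractions. The mural list includes Cspg4, which is also in the oligodendrocyte lineage list. In tdTomato, Cspg4 averaged 61.8 CPM and the mural and fibroblast sum averaged 76.8 CPM. Endothelial markers (10 genes) averaged 23.0, 37.1 and 11.0 CPM in sum, and red blood cell markers (6 genes) ranged over 44.2 to 84.3, 55.3 to 101 and 29.8 to 133 CPM. The sum of neuronal markers (12 genes) was the highest in tdTomato, at 49.9 to 74.5, 80.4 to 103 and 453 to 678 CPM. Single neuronal markers went both ways. Of 11 tested, 2 were called higher and 5 lower in eGFP/tdTomato against tdTomato, and 3 higher and 3 lower in eGFP against tdTomato. Between eGFP/tdTomato and eGFP, 9 of 14, 4 of 10 and 9 of 10 of the microglial, mural and ependymal markers fell. No marker of these lists was at 0 in all libraries of a fraction. The 21 immediate early genes summed to 7033 to 8167 CPM in the eGFP/tdTomato fraction, 6534 to 9819 CPM in the eGFP fraction and 469 to 828 CPM in the tdTomato fraction. Against tdTomato, 18 of them rose in eGFP/tdTomato and 21 in eGFP. Their part in the member differences was not tested. Fewer cells of a type and less RNA per cell cannot be told apart in these sorted bulk libraries.

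Per kilobase of exon, Hspa8 ranked first and Hspa5 second in every fraction, at 235 ± 18.7 and 152 ± 18.8 CPM per kb in eGFP/tdTomato, 242 ± 56.4 and 141 ± 31.9 in eGFP, and 373 ± 47.9 and 176 ± 37.2 in tdTomato (SD, n = 4). In the eGFP/tdTomato fraction Hsp90aa1 (73.6 ± 9.08), Hspd1 (67.4 ± 3.30) and Hspe1 (53.6 ± 14.1) followed, and neighbours in that order lay within their spread. Hspa1a and Hspa1b closed the order there at 1.28 ± 0.201 and 0.745 ± 0.595 CPM per kb. Hspb1 was the third in the eGFP fraction (106 ± 35.3) beside Hsp90aa1 (105 ± 27.4), and the last in the tdTomato fraction (0.657 ± 0.337). The members together summed to 2376 ± 162, 2723 ± 606 and 3446 ± 411 CPM in the eGFP/tdTomato, eGFP and tdTomato fractions, of which Hspa8 alone held 40.4 to 44.1%, 37.4 to 38.9% and 45.2 to 48.6%.

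A wider set of 114 other proteostasis genes in 8 lists placed the members among their partners, and 113 passed the filter. Between eGFP/tdTomato and tdTomato, 8 rose and 39 fell (41.6%). Between eGFP and tdTomato, 13 rose and 47 fell (53.1%). Of protein-coding genes of at least 1 CPM, 45.9% and 53.7% were called in these comparisons, so with all 12 libraries the shares called lay near this background. Between eGFP/tdTomato and eGFP, 1 was called, the J-domain gene Dnajc12, which fell, at 10.4 ± 0.564 CPM in eGFP/tdTomato against 18.6 ± 2.08 CPM in eGFP (SD, n = 4; adjusted p = 0.0235). Its call was lost in 6 of 8 fits without 1 eGFP/tdTomato or eGFP library, those without any 1 eGFP/tdTomato library and without eGFP replicate 2 or 5 (adjusted p 0.0533 to 0.111). Without eGFP replicate 1, 5 were called between eGFP/tdTomato and eGFP, all 5 lower. In that fit 7 rose and 58 fell between eGFP/tdTomato and tdTomato, and 11 rose and 57 fell between eGFP and tdTomato. The share of protein-coding genes called was not computed for it.

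All listed genes of the chaperonin TRiC, which folds actin and tubulin, fell in both fractions with eGFP against tdTomato. Of prefoldin, which delivers them to TRiC, Pfdn2, Vbp1 and Pfdn4 fell in both and Pfdn6 in eGFP alone. Of the 14 genes together, 11 fell and 3 were not called between eGFP/tdTomato and tdTomato (median log2 difference -1.01). Those 3 were the prefoldin genes Pfdn1, Pfdn5 and Pfdn6. Between eGFP and tdTomato, 1 rose and 12 fell (median -1.10), and Pfdn1 was not called. Called shares of protein-coding genes of at least 1 CPM were 45.9% and 53.7% in these comparisons. Shares of all genes called lower were 12.4% and 14.9%. Cct5 averaged 166 ± 14.1 CPM in eGFP/tdTomato against 436 ± 77.1 CPM in tdTomato, a 2.63-fold fall (adjusted p = 7.21e-05). Cct6a averaged 159 ± 34.4 CPM in eGFP against 425 ± 73.8 CPM in tdTomato, a 2.67-fold fall (adjusted p = 4.08e-05). The prefoldin subunit gene Pfdn5 was the 1 that rose in eGFP (adjusted p = 0.0483), a call lost in the fits without each of the 12 libraries in turn.

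The small heat shock protein genes Hspb8 and Hspb6 and the co-chaperone gene Bag3 rose in both fractions with eGFP against tdTomato. Hspb8, whose protein binds Bag3 in selective autophagy, averaged 125 ± 33.5 CPM in eGFP/tdTomato and 109 ± 34.9 CPM in eGFP, against 0.881 ± 0.349 CPM in tdTomato (143-fold and 125-fold, adjusted p = 2.1e-09 and 2.33e-09). Bag3, an inducible HSP70 co-chaperone gene, averaged 21.5 ± 7.01 and 25.5 ± 6.75 CPM in those fractions, against 0.705 ± 0.0814 CPM in tdTomato (30.3-fold and 36.0-fold, adjusted p = 8.18e-09 and 5.21e-09). Hspb6 rose 2.89-fold and 4.18-fold (adjusted p = 0.000135 and 6.94e-06). Cryab, the alpha-B crystallin gene, was not called in either comparison (adjusted p = 0.192 and 0.0711). Of 6 small heat shock genes tested besides Hspb1, these 2 Hspb genes were called in each comparison with tdTomato. Called shares of protein-coding genes of at least 1 CPM were 45.9% and 53.7% there.

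More cytosolic partners and HSP70 relatives fell than rose against tdTomato. Of protein-coding genes of at least 1 CPM, 45.9% and 53.7% were called in eGFP/tdTomato and eGFP against tdTomato. In a fit of such genes alone, chosen after seeing the data, 3754 of 15284 rose and 4181 fell in eGFP/tdTomato. In eGFP, 4476 rose and 4430 fell. Of 20 HSP70 and HSP90 co-chaperone genes, 1 rose and 9 fell in eGFP/tdTomato, and 2 rose and 8 fell in eGFP. Fkbp5, an HSP90 immunophilin gene of glucocorticoid receptor complexes, averaged 4.0 ± 1.45 CPM in eGFP/tdTomato against 16.4 ± 4.55 CPM in tdTomato (4.09-fold lower, adjusted p = 0.00391). Of 19 J-domain genes, 1 rose and 5 fell in eGFP/tdTomato and 2 rose and 6 fell in eGFP. Dnajc6, the auxilin gene that uncoats clathrin vesicles, averaged 5.5 ± 1.14 CPM in eGFP/tdTomato against 34.1 ± 11.2 CPM in tdTomato (6.19-fold lower, adjusted p = 9.05e-05). Of 8 other HSP70, HSP110 and HSP90 genes, 3 fell in eGFP/tdTomato, and 2 rose and 3 fell in eGFP. Hspa2 averaged 38.4 ± 11.0 CPM in eGFP/tdTomato against 210 ± 35.9 CPM in tdTomato (5.48-fold lower, adjusted p = 7.25e-06).

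Endoplasmic reticulum genes changed in both directions. Of 30 tested, 4 rose and 9 fell in eGFP/tdTomato, and 3 rose and 14 fell in eGFP, against tdTomato. Of protein-coding genes of at least 1 CPM, 45.9% and 53.7% were called in these comparisons. Sdf2l1, a BiP cofactor gene, averaged 16.0 ± 0.738 CPM in eGFP/tdTomato against 105 ± 13.6 CPM in tdTomato (6.55-fold lower, adjusted p = 2.6e-08). Serpinh1, the collagen chaperone gene, averaged 104 ± 52.8 CPM in eGFP/tdTomato against 6.37 ± 3.49 CPM in tdTomato (16.3-fold higher, adjusted p = 1.02e-05). Dnajb9, a J-domain gene of the endoplasmic reticulum, rose 2.02-fold in eGFP/tdTomato (adjusted p = 0.000489), a call lost without set 3 (adjusted p = 0.0914). Of 12 mitochondrial chaperone and protease genes, 2 fell in eGFP/tdTomato and 4 fell in eGFP.

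**Figure D4:**
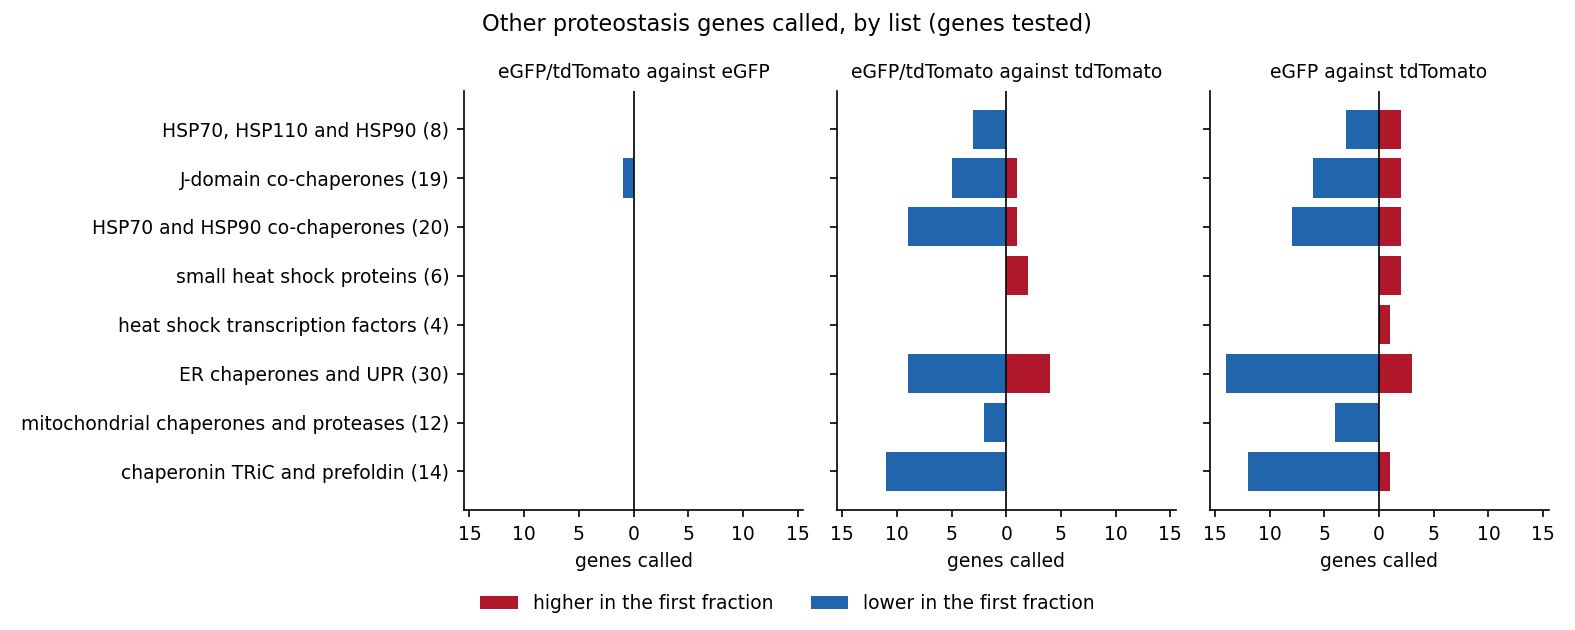
Number of other proteostasis genes called in each list (genes tested in brackets) in the 3 comparisons, with genes higher in the fraction named first to the right of 0 in red and lower ones to the left in blue. The TRiC and prefoldin list has 11 and 12 genes lower against the tdTomato fraction, and 1 J-domain gene is the single call between the eGFP/tdTomato and eGFP fractions.

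In a list of the heat shock factor genes Hsf1, Hsf2 and Hsf4 and the factor-binding protein gene Hsbp1, 1 of 4 was called in any comparison. Called shares of protein-coding genes of at least 1 CPM were 4.61% between eGFP/tdTomato and eGFP. They were 45.9% and 53.7% in eGFP/tdTomato and eGFP against tdTomato. Hsf1 averaged 45.5 ± 8.24 CPM in eGFP/tdTomato, 39.0 ± 10.1 CPM in eGFP and 47.5 ± 10.1 CPM in tdTomato, and was called in none of the 3 comparisons. The call among the 4 genes of this list was Hsf4, named after its values were seen, at 2.79 ± 1.16 CPM in eGFP against 0.298 ± 0.253 CPM in tdTomato (adjusted p = 0.00244).

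Across the 12 libraries, the genes with the pattern most like Hspa1a on the log2(CPM + 1) scale were Gpc3 (Pearson r 0.947), Ift88 (0.942) and Rpgrip1l (0.937). Those most like Hspa8 were Polr2d (0.986), Psmb2 (0.985) and Rala (0.982), and those most like Hspa5 were Synj2bp (0.952), Katnbl1 (0.949) and Rbm18 (0.948). The libraries share fractions and sets, so these values describe likeness in these libraries.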

How the data were processed

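RNA of sorted spinal cord glia was sequenced on a BGISEQ-500. The authors deposited raw counts per Ensembl gene, 1 file per library, made with STAR and HTSeq on GRCm38, per the submitters' processing notes; versions and strand setting are not given in the sources used here. Each file held 53465 genes and 5 closing lines that name no gene, which stayed out of the tests: reads outside genes were 21.2 to 57.1% of a library. GENCODE M21 gave symbols, positions and exons (99.8% of identifiers matched), and RefSeq the start regions.

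Counts were tested with edgeR 4.0.16 in R 4.3.3 (robust quasi-likelihood F-test after filterByExpr, scaled by TMM) on all 12 libraries, with the fraction as the only factor. Benjamini-Hochberg adjustment ran over 29361 genes, and an adjusted p under 0.05 was a call. SE is the log2 fold change over the root of F, and intervals are its 95% normal range. Alternatives used limma 3.58.1, DESeq2 1.42.0, other scalings, filters and covariates, and left out libraries and sets. Shares have Wilson 95% intervals.

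The members and the lists were chosen with earlier results of these data known. The fitted p values of Hspa1a and Hspa1b are therefore not used, though their tests were planned between eGFP/tdTomato and tdTomato. Named list genes were, per list, comparison and direction, up to 2 called genes with the largest change and at least 5 CPM in the higher fraction, of which the text gives some. Genes alike a member were the 3 protein-coding genes of at least 5 CPM with the highest r. Set numbers recur in every fraction, and the labels do not say what a set shares.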

Additional observations from a re-analysis of the deposited data

Results flagged for a closer look

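Hsp90aa1 in the eGFP fraction had 1 library far from the others. Replicate 1 was at 251 CPM, while the other 3 lay at 452 to 484 CPM, and the gap was 0.863 of the range. It was the 1 flag among 30 groups of 4 libraries checked, and chance flags about 1 in 20. This library also had 57.1% of its reads outside annotated genes, and the part of that share in the Hsp90aa1 level was not tested. Without it, the difference between eGFP/tdTomato and eGFP was -0.74 on the log2 scale, against -0.51 with it.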

How the results depend on the processing

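Over 27 alternatives, Hsp90aa1, Hsph1 and Hspb1 remained called between eGFP/tdTomato and tdTomato, and Dnajb1, Hsph1 and Hspb1 between eGFP and tdTomato. Members called between eGFP and tdTomato were 5, and 3 without set 2. The count of other proteostasis genes called between eGFP/tdTomato and eGFP was 1, and it was 3 with median-ratio size factors, 4 with upper-quartile factors, 7 with DESeq2, 2 with limma-voom, 2 with no filter on low counts, 5 with at least 1 CPM in 4 libraries, 5 with a covariate for reads outside genes, 2 with only the 2 fractions compared, 0 without set 2, set 3 or set 5, and 5 with protein-coding genes of at least 1 CPM, an alternative chosen after seeing the data. It was 0 to 5 with 1 library left out in turn. The direction turned for Hspe1, to 0.22 on the log2 scale (eGFP/tdTomato against tdTomato) and 0.14 (eGFP against tdTomato) with that covariate and to 0.01 without eGFP/tdTomato replicate 2 (-0.53 to 0.01 with 1 library left out in turn), and for Hsp90aa1 to 0.01 (eGFP against tdTomato) with that covariate. None of these was called, and the cause was not tested. The median log2 difference of all genes was 0.70 between eGFP/tdTomato and tdTomato (0.57 with median-ratio size factors, 0.58 with upper-quartile factors, 0.07 to 0.97 over all alternatives) and 0.79 between eGFP and tdTomato (0.10 to 1.07). With the covariate for reads outside genes these medians were 0.26 and 0.10. Over all genes, higher calls outnumbered lower ones between eGFP/tdTomato and tdTomato, but lower ones outnumbered higher in 8 of 27 alternatives, among them upper-quartile factors (4496 higher and 4723 lower) and at least 1 CPM in 4 libraries (4354 and 5151). Between eGFP and tdTomato they did in 5 of 27.

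With the set number as a replicate block, the other proteostasis genes called between eGFP/tdTomato and eGFP were 3. The log2 difference of Hspa1b between eGFP/tdTomato and tdTomato was -1.78 with the block, given without a test. Over all genes, 566 higher and 673 lower were called between eGFP/tdTomato and eGFP, against 239 and 491 without the block. Deviations of same-numbered libraries correlated at -0.226 to 0.596, above 0.1 in 8 of 12 pairs. The 36 pairs of unlike number correlated at -0.658 to 0.566, nearly as high at the top. Of the 12 libraries, 7 correlated best with their own number. The Y-linked genes and the Hspa1b share followed the number across fractions, so libraries of a number may be paired. Serpinh1 did as well, but it was chosen after its values were seen, so nothing is read from it here. The number was left out of the main fit because the labels do not say what a set shares.

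Depth limits Hspa1b in set 2 of the eGFP/tdTomato fraction, which rests on 2 counts, and Hspb1 in the tdTomato fraction, on 7 to 34 counts a library.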

Other observations

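Serpinh1, chosen here after its values were seen, followed the set within every fraction. It was at 96.6, 75.1, 181 and 63.7 CPM in eGFP/tdTomato replicates 1, 2, 3 and 5, at 104, 78.3, 207 and 56.5 CPM in the eGFP libraries and at 6.33, 4.6, 11.3 and 3.28 CPM in the tdTomato libraries. The order of sets was the same in all 3 fractions, with set 3 the highest and set 5 the lowest. Sets accounted for 98.8% of its within-fraction variation on the log2 scale, and 5 of 12038 genes of at least 5 CPM, itself among them, had as high a share. Among the members, Hspa1b (91.1%) was the highest and Hsp90aa1 (19.0%) the lowest.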
